A study of Mus musculus with 15 samples.

Results

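The genes described here are 39 genes of the striated muscle sarcomere, chosen by symbol: 14 of the thin filament, 8 of the myosin light chains and myosin binding protein C, 10 of the Z-disc, 4 of titin and the M-band, and 3 encoding the Xin proteins and Nrap. They are 39 of the 42396 gene entries in each of 2 tables of counts. All 39 had enough reads to be tested in every comparison. In 10 cases the list holds a gene of fast fibres or of adult skeletal muscle together with a paralog of another type, and these are set side by side. The paralog is one of slow fibres or of heart, or, for Actn2, of all fibres and heart.

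In a sarcomere, thin filaments of actin slide past thick filaments of myosin. Tropomyosin and the troponin complex lie along actin and let calcium switch contraction on. The Z-disc anchors thin filaments through alpha-actinin, the M-band links thick filaments, and titin spans from the Z-disc to the M-band. Fast and slow fibres build the same structure from different paralogs, and the tibialis anterior of the mouse lower leg is a predominantly fast muscle.

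RNA came from the tibialis anterior of adult C57BL/6 mice whose hindlimb had been given AAV6, an adeno-associated virus, 2 months before. The virus carried LSMEM2 C-del, a form of a membrane protein whose name the labels do not explain, or EGFP, a green fluorescent protein, as mock. There were 4 male C-del, 4 male mock, 4 female C-del and 3 female mock libraries. Each sex has its own table, so that sex and table cannot be told apart, and neither exact ages nor the promoter of the virus is stated in the sources used here. Nothing states that each library came from its own animal, so p-values rest on a spread between libraries that may be technical. In such bulk samples, fewer cells of a type and less RNA per cell cannot be told apart.

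Libraries held 15304503 to 17744015 counts in male C-del, 14297620 to 15454510 in male mock, 10239329 to 12054871 in female C-del and 9285145 to 10790101 in female mock. Levels are given as CPM, counts scaled to library size after TMM scaling (a correction for library composition) within each sex. The delivered gene, Lsmem2, had 481, 2355, 1865 and 1287 CPM in male C-del libraries 1 to 4 and 1361, 2119, 1684 and 2705 CPM in female C-del libraries 1 to 4, against 28.5 to 32.8 CPM in the 7 mock libraries. The protocol text speaks of hearts, but 7 heart markers summed to 8.17 to 32.7 CPM, while 6 skeletal muscle markers summed to 76972 to 112125 CPM. Of the heart markers, Mybpc3, Myl7, Nppa and Tnni3 were at or near 0 in every library (0.351 CPM at most). Myh6, Tnnt2 and Myl4 were present at 2.89 to 7.69, 0.94 to 5.28 and 4.02 to 21.6 CPM. Several libraries stood apart. Male C-del libraries 1 and 2 had 195 and 219 CPM summed over 11 macrophage markers, against 62.4 and 81.4 CPM in male C-del libraries 3 and 4 and 75.2 to 90.8 CPM in male mock libraries, and 0 of 10 such markers tested passed in males (edgeR; 1 was higher at an unadjusted p under 0.05). Female mock libraries 2 and 3 had 621 and 305 CPM of macrophage markers and library 2 had 528 CPM of 9 lymphocyte markers, against 56.2 to 120 and 1.47 to 4.38 CPM in female C-del libraries. In female mock library 3, long genes were low and short genes high, as described with nebulin and titin.

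In males, 11 of the 39 sarcomere genes passed the test at an adjusted p under 0.05 (edgeR quasi-likelihood test, adjusted over all 14543 genes tested), 8 higher and 3 lower with C-del. Over all genes 11.2% passed, 5.8% higher and 5.37% lower. The 8 were Acta1, Tpm2, Lmod3, Mybpc1, Ldb3, Myot, Myom3 and Xirp2, and the 3 were Tpm1, Myl4 and Myoz3. An unadjusted p under 0.05 was reached by 15 members that were higher and 4 that were lower, where 26% of all genes reached it. The C-del libraries were all above the mock libraries for 12 members and all below for 3, against 9.05% and 8.51% of all genes. The median log2 fold change of the members was 0.0098, against -0.0047 for all genes, so that members above and below 0 were close to balanced. Most of the passing changes were small: 9 of the 11 were at most 1.24-fold.

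The male count rested on all 8 libraries being taken as separate. Some neighbouring male columns resembled each other, by the mean chi-square per gene between 2 libraries, which is near 1 for counting noise alone. It was 4.84 for C-del 1 and 2 and 4.56 for C-del 3 and 4, against 12.1 to 14.7 for the other C-del pairs. It was 2.62 for mock 3 and 4, against 4.60 to 9.50 for the other mock pairs. Mock 1 and 2, also neighbours, were at 6.04, farther apart than mock 1 and 4 at 4.60. With neighbouring columns summed to 2 values a group, mock 1 and 2 included, 0 of 39 members passed (edgeR; 11 reached an unadjusted p under 0.05), and 1.68% of all genes did. In a fit of all 15 libraries, which share 1 estimate of the spread, Mybpc1 alone of the members passed in males, and 2.49% of all genes did. With C-del library 1 or mock library 1 left out, 5 members passed, and 7.73% or 7.48% of all genes did.

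In females, 0 of 39 members passed with edgeR, where 0.0141% of all 14220 genes tested did (2 genes). At an unadjusted p under 0.05 there were 11 members higher and 3 lower, against 11.9% of all genes. DESeq2 passed 5 members, all higher (Myl3, Actn2, Myoz2, Myom3 and Xirp2), and 2.65% of all genes. In the edgeR fit of all 15 libraries, with its shared estimate of the spread, 9 members passed in females, and 5.09% of all genes did. Of these, 8 were higher (Myl3, Mybpc1, Actn2, Myoz2, Ldb3, Myom3, Xirp2 and Nrap) and 1 was lower (Tpm3). C-del and mock libraries did not overlap for 9 members, 7 higher (Neb, Myl3, Mybpc1, Ldb3, Myom3, Xirp2 and Nrap) and 2 lower (Actc1 and Actn3), against 10.1% of all genes (5.71% higher and 4.39% lower). The median log2 fold change was 0.06 for the members and -0.01 for all genes. Without female mock library 1, 5 members passed with edgeR, namely Myl3, Myom3 and Xirp2 higher and Tpm3 and Myl4 lower, and 7.14% of all genes passed in that run. Here and below, that run leaves only female mock libraries 2 and 3, which stood apart as described above. They held 621 and 305 CPM of macrophage markers, against 95.2 CPM in the library left out.

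A fit of all 15 libraries gave the average of the male and female effects, each taken within its own table. In this average, 7 members were higher with C-del (Mybpc1, Actn2, Myoz2, Ldb3, Myot, Myom3 and Xirp2) and Myl4 was lower, 8 of 39, where 4.41% of all 15272 genes tested passed (2.42% higher and 1.99% lower). Thus 4 of the 10 Z-disc members rose and 0 of the 14 thin filament members passed (edgeR), of which 2 higher and 4 lower reached an unadjusted p under 0.05. In males alone, 2 Z-disc members rose and 1 fell, and 3 thin filament members rose and 1 fell. Over all members an unadjusted p under 0.05 was reached by 13 higher and 6 lower, against 19.7% of all genes. The median log2 fold change was 0.06 over the members and -0.02 over all genes. The effect in females less that in males passed for 0 of 39 members with edgeR, where 0.354% of all genes did, and for 6 at an unadjusted p under 0.05, where 16.9% of all genes did. DESeq2 passed Myl3 in that contrast, and 4.3% of all genes. Without male C-del libraries 1 and 2 the average passed for 3 members, Mybpc1, Myom3 and Xirp2, and for 1.25% of all genes.

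**Figure D1:**
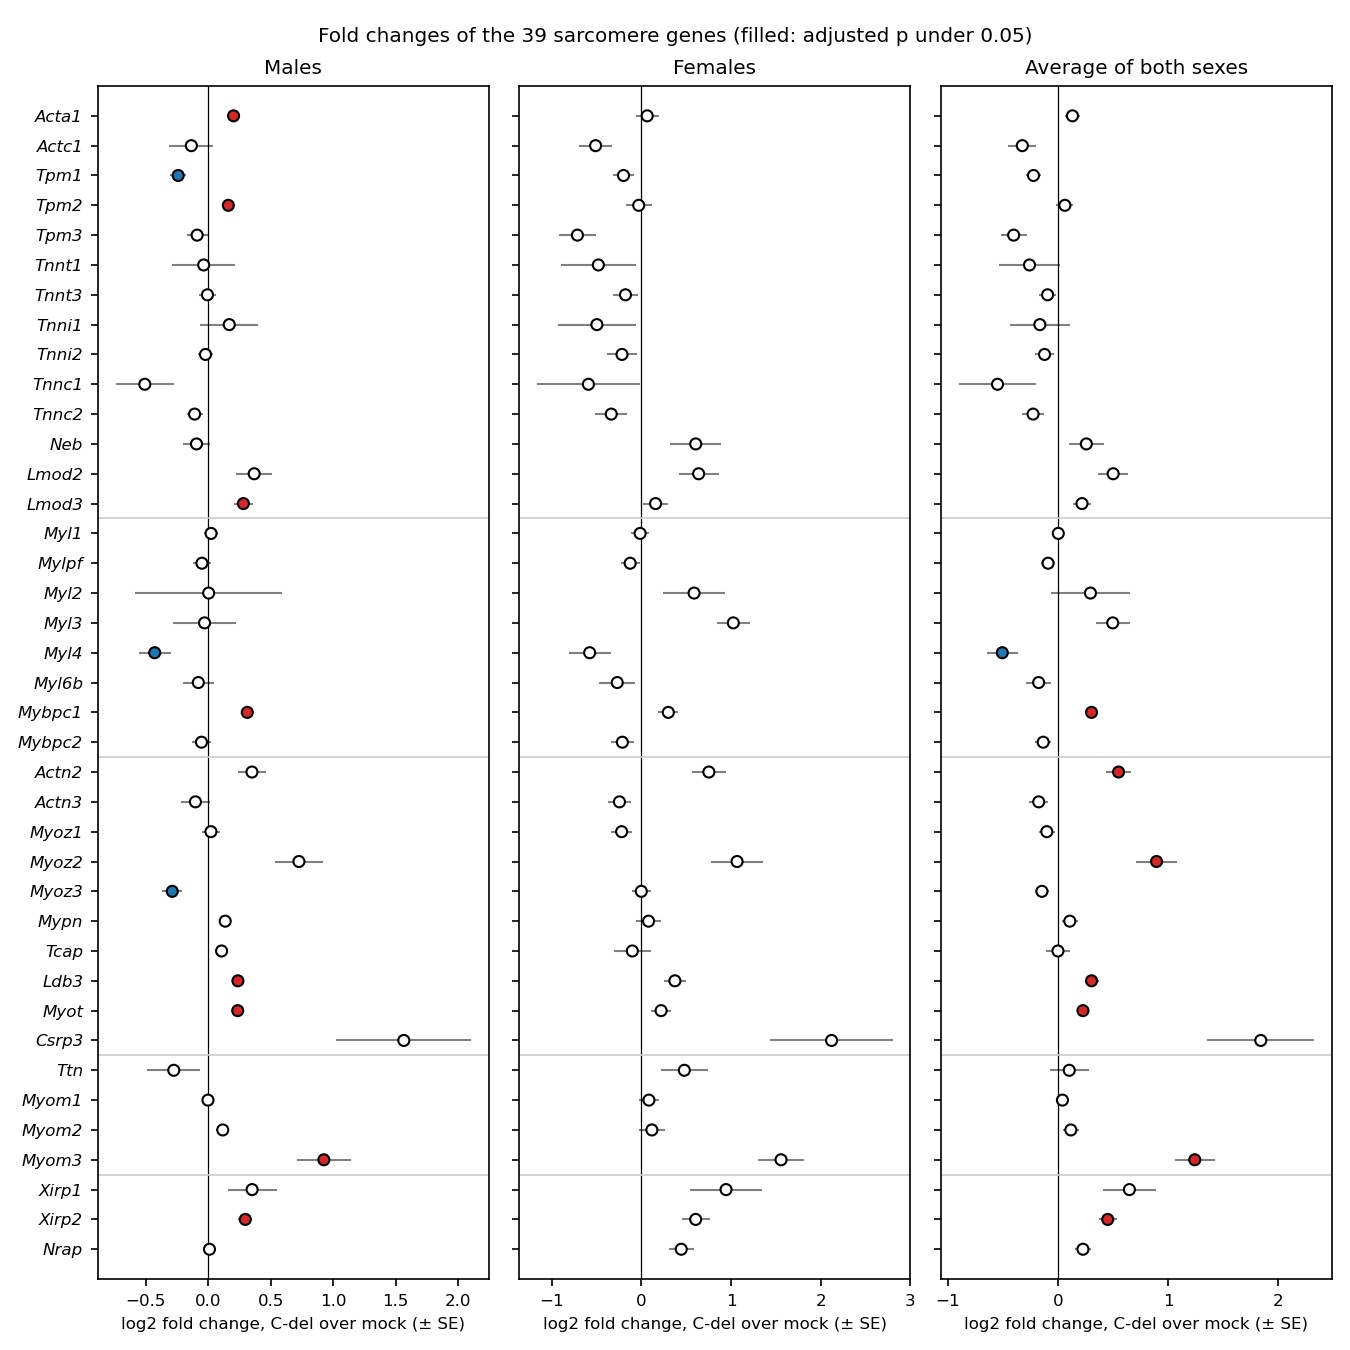
Log2 fold change of C-del over mock (horizontal axis, with its SE as a bar) for the 39 sarcomere genes, in males, in females and as the average of both sexes. Filled points passed at an adjusted p under 0.05 (red higher, blue lower); grey lines separate thin filament, light chain and thick filament, Z-disc, titin and M-band, and Xin and Nrap genes. Myom3, Myoz2 and Csrp3 lie farthest to the right in each panel, and Csrp3 is unfilled.

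The male and female comparisons share no library. Of the 39 members, 30 (76.9%) had log2 fold changes of the same sign in both, 16 higher and 14 lower, against 7125 of 14022 genes tested in both (50.8%). These shares are descriptions, since members are expressed in the same fibres and are not independent. The members with the largest values in both sexes were Csrp3, Myom3 and Myoz2.

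**Figure D2:**
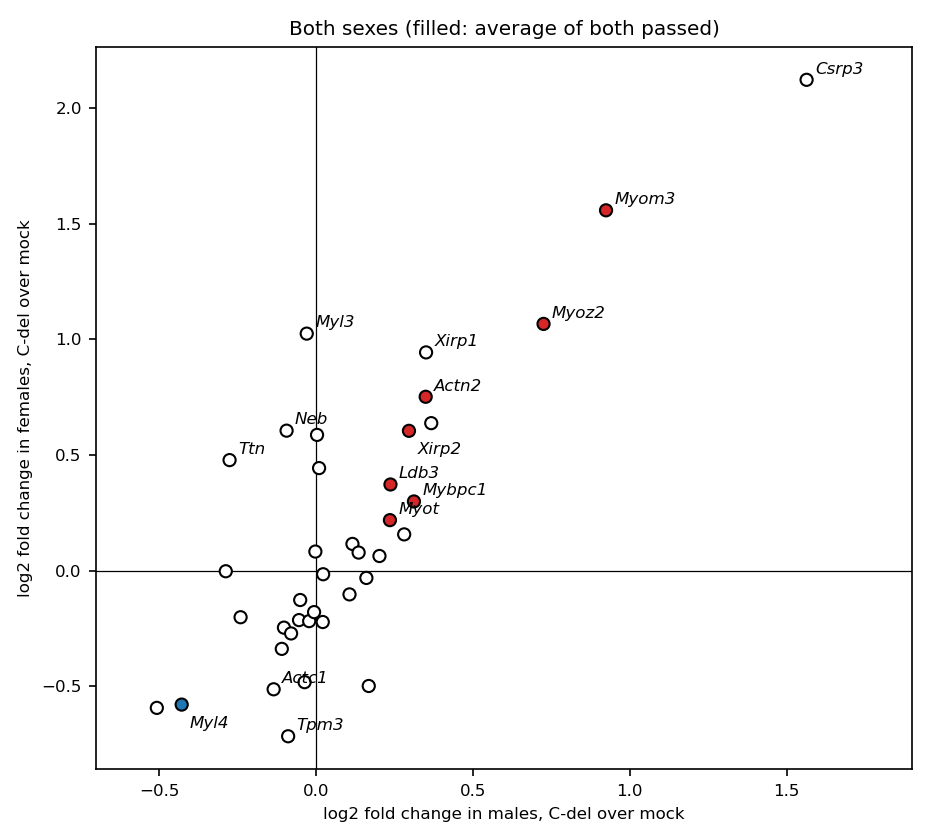
Each point is 1 of the 39 sarcomere genes, with its log2 fold change of C-del over mock in males (horizontal axis) and in females (vertical axis). Filled points passed in the average of both sexes (red higher, blue lower). Of the points, 30 lie in the upper right or lower left part, and Myl3, Neb and Ttn are high on the female axis with male values of -0.03, -0.09 and -0.28.

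Of the members that rose in the average of both sexes, Myom3, Myoz2 and Actn2 had the largest log2 fold changes, and their promoters are shown for that reason. The sequences are the 250 bases before the transcript start, read 5′ to 3′ on the gene's strand from RefSeq on GRCm38.p6. Capitals mark matches of the E-box CANNTG, some forms of which are bound by MyoD and related factors, and of the MEF2 motif. Which factor binds the forms found here was not tested. The MCAT motif CATTCC and the CArG box of serum response factor were sought too, all on both strands, and had no match in these 3 windows.
Myom3, chr4:135759465-135759714, plus strand: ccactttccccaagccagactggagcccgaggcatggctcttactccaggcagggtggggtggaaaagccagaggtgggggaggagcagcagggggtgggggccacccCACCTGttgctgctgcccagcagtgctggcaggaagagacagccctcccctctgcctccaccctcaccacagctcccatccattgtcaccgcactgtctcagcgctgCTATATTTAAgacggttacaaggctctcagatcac
Myoz2, chr3:123034988-123035237, minus strand: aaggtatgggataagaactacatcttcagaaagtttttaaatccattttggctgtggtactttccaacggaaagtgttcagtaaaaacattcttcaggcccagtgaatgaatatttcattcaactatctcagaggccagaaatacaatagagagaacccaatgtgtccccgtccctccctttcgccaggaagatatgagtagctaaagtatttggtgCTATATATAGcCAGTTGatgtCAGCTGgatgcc
Actn2, chr13:12340733-12340982, minus strand: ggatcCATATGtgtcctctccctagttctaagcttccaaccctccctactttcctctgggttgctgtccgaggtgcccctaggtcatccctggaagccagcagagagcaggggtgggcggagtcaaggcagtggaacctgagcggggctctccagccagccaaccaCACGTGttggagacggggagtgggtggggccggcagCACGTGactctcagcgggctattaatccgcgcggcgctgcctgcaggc
The Myom3 window held an E-box at -142 to -137 and a MEF2 match at -35 to -26, counted back from the base before the start as -1, and lies inside the annotated span of the gene (chromosome 4, 135758800 to 135815571). The Myoz2 window held a MEF2 match at -33 to -24 with E-boxes at -22 to -17 and -12 to -7. The last bases of that window, with the E-box at -12 to -7, lie inside the annotated span of the gene (chromosome 3, 123006206 to 123035003). The Actn2 window held E-boxes at -245 to -240, -84 to -79 and -48 to -43, and no MEF2 match. Of 27025 promoters of the same length, 66.0% held an E-box, 12.6% an MCAT motif, 3.01% a MEF2 match and 1.40% a CArG box. Among the 28 members with a promoter in the table, 25 held an E-box, 7 an MCAT motif, 4 a MEF2 match (Xirp2, Ttn, Myoz2 and Myom3) and 5 a CArG box (Actc1, Acta1, Myl3, Ldb3 and Myom1). A match is a string of letters and not a measured binding site.

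Actin forms the backbone of the thin filament. Acta1, the skeletal muscle actin of adult fibres, had 33212, 33579, 33296 and 32454 CPM in male C-del libraries, against 28202, 29969.7, 27131 and 29900.1 CPM in male mock libraries. All C-del libraries lay above all mock libraries, and the rise was small, with a log2 fold change of 0.20 ± 0.05 (SE; edgeR, adjusted p = 0.0185). Leaving out male mock library 1 or 3 gave an adjusted p of 0.0717 or 0.0694. In females, Acta1 had 27389.9, 27119, 29346 and 27959 CPM in female C-del libraries, against 27592, 21894 and 30749 CPM in female mock libraries. There the groups overlapped, with mock library 2 lowest and mock library 3 highest, and the log2 fold change was 0.06 ± 0.13 (SE; edgeR, adjusted p = 0.863).

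Actc1, the actin of heart and developing muscle, had 210.3, 149, 147 and 173 CPM in male C-del libraries, against 237, 185, 153 and 169 CPM in male mock libraries, and these overlapped. The log2 fold change was -0.14 ± 0.18 (SE; edgeR, adjusted p = 0.695). In females, Actc1 had 134, 101, 127 and 77.1 CPM in female C-del libraries, against 162, 173 and 136 CPM in female mock libraries. All 4 C-del libraries lay below the mock libraries, C-del library 4 farthest, with a log2 fold change of -0.51 ± 0.18 (SE; edgeR, adjusted p = 0.311). Actin paralogs are close in sequence, so reads could be shared between Acta1 and Actc1 depending on counting options not given in the sources used here.

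Tropomyosins cover the myosin sites on actin. Tpm1, the main alpha-tropomyosin of fast muscle, had 13231, 13444, 15723 and 16089 CPM in male C-del libraries, against 16828, 17818, 16849 and 17595 CPM in male mock libraries. C-del libraries 1 and 2 were the lowest of the 8, and no C-del library reached a mock library. Its log2 fold change was -0.24 ± 0.07 (SE; edgeR, adjusted p = 0.0297). The call was lost (adjusted p from 0.0543 to 0.0913) without any single library of C-del 1, C-del 2 or mock 1, 2, 3 or 4, and with both C-del 1 and 2 left out the log2 fold change was -0.12. In females, Tpm1 had 17526, 15989, 17828 and 17569 CPM in female C-del libraries, against 19753, 16936 and 22716 CPM in female mock libraries, with the groups overlapping and a log2 fold change of -0.20 ± 0.12 (SE; edgeR, adjusted p = 0.545). Without female mock library 2 the average of both sexes was -0.27 (edgeR, adjusted p = 0.0167).

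Tpm2, the beta-tropomyosin of fast and slow fibres, had 8135, 8233, 7831 and 8454 CPM in male C-del libraries, against 7334, 7247, 7273 and 7362 CPM in male mock libraries. It was higher in all C-del libraries by a log2 fold change of 0.16 ± 0.04 (SE; edgeR, adjusted p = 0.0309), though leaving out any library other than C-del 3 gave an adjusted p of 0.0521 to 0.0863. In females, Tpm2 had 8553, 8448, 9132 and 8810.2 CPM in female C-del libraries, against 8872, 6944 and 10962 CPM in female mock libraries, with mock libraries 2 and 3 at the 2 ends of the range, and a log2 fold change of -0.03 ± 0.15 (SE; edgeR, adjusted p = 0.95). Tpm3, the slow alpha-tropomyosin, had 37.8, 45.97, 35.8 and 37.3 CPM in male C-del libraries, against 38.1, 44.9, 45.03 and 39.03 CPM in male mock libraries, with a log2 fold change of -0.09 ± 0.08 (SE; edgeR, adjusted p = 0.549). In females, Tpm3 had 37.5, 43.04, 53.7 and 33.5 CPM in female C-del libraries, against 47.9, 81.96 and 76.8 CPM in female mock libraries. Female mock libraries 2 and 3, those with the most macrophage markers, were the highest, and C-del library 3 exceeded mock library 1. Tpm3 is also expressed outside muscle, and the part of other cells in these values was not tested. The log2 fold change was -0.72 ± 0.21 (SE; edgeR, adjusted p = 0.212), and without mock library 1 it was -0.92 (edgeR, adjusted p = 0.0125). Its average of both sexes passed without that library or without female C-del library 3 (edgeR, adjusted p = 0.00272 or 0.0317). Without female mock library 1 the female less male difference of Tpm3 was -0.82 (edgeR, adjusted p = 0.0106).

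None of the 6 troponin genes passed in males, females or the average with edgeR; at an unadjusted p under 0.05 there were Tnnc1, lower in males, and Tnnc2, lower in the average. DESeq2 passed 0 of the 6 in these comparisons. Troponin T binds the complex to tropomyosin. Its fast paralog Tnnt3 had 17162, 17286, 19468 and 21411 CPM in male C-del libraries, against 19144, 18866, 18402 and 19233 CPM in male mock libraries. In females, Tnnt3 had 17025, 16741, 17711 and 18379.8 CPM in female C-del libraries, against 18975, 16014 and 24318 CPM in female mock libraries. C-del library 4 was highest in males and mock library 3 in females, and the groups overlapped in both. The slow paralog Tnnt1 had 4.38, 3.97, 4.62 and 7.73 CPM in male C-del libraries, against 3.69, 6.71, 6.41 and 4.51 CPM in male mock libraries. In females, Tnnt1 had 5.28, 12.6, 18.2 and 5.14 CPM in female C-del libraries, against 16.7, 12.02 and 14.7 CPM in female mock libraries. Female C-del libraries 1 and 4 were low and libraries 2 and 3 were within or above the range of the mock libraries. The log2 fold changes in males and females were -0.01 ± 0.07 and -0.18 ± 0.14 for Tnnt3, and -0.04 ± 0.25 and -0.48 ± 0.42 for Tnnt1 (SE).

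Troponin I inhibits contraction at rest. The fast Tnni2 had 6839.6, 6864, 7803 and 8265 CPM in male C-del libraries, against 7612, 7727, 7275 and 7611 CPM in male mock libraries. In females, Tnni2 had 6952, 7463, 7610.03 and 7906 CPM in female C-del libraries, against 8054, 6777 and 11274 CPM in female mock libraries, again with mock library 3 highest. The slow Tnni1 had 3.67, 2.61, 2.34 and 3.20 CPM in male C-del libraries, against 1.49, 3.22, 3.41 and 2.43 CPM in male mock libraries. In females, Tnni1 had 3.22, 8.28, 10.9 and 3.32 CPM in female C-del libraries, against 7.68, 7.37 and 12.4 CPM in female mock libraries, with the same 2 C-del libraries low as for Tnnt1. The log2 fold changes in males and females were -0.02 ± 0.06 and -0.22 ± 0.16 for Tnni2, and 0.17 ± 0.23 and -0.50 ± 0.43 for Tnni1 (SE).

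Troponin C binds the calcium. The fast Tnnc2 had 6705, 6671, 7591 and 8035 CPM in male C-del libraries, against 7992, 8184, 7357 and 7745 CPM in male mock libraries. In females, Tnnc2 had 7843, 7745, 7853 and 7844 CPM in female C-del libraries, against 8873, 7409 and 13371 CPM in female mock libraries. The 4 female C-del libraries were within 7745 to 7853 CPM, while mock libraries reached from 7409 to 13371 CPM, so the female log2 fold change of -0.34 ± 0.18 (SE) was -0.06 without mock library 3. Of the 700 exon bases of Tnnc2, 592 also lie in exons of Ube2c on the other strand, and the use of strand in counting was not stated. Leaving out female mock library 2, the average of both sexes was -0.31 for Tnnc2 (edgeR, adjusted p = 0.0327). The slow and cardiac Tnnc1 had 3.22, 1.87, 2.14 and 2.56 CPM in male C-del libraries, against 2.39, 4.29, 2.66 and 4.58 CPM in male mock libraries. In females, Tnnc1 had 3.22, 7.26, 12.5 and 2.01 CPM in female C-del libraries, against 8.12, 5.62 and 14.96 CPM in female mock libraries. Both sets overlapped, with log2 fold changes of -0.51 ± 0.23 in males and -0.59 ± 0.57 in females (SE).

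Nebulin, which runs the length of the thin filament, and titin are encoded by the longest transcripts of the list. Neb had 5985, 6523, 8689 and 6938 CPM in male C-del libraries, against 7728, 8212, 7089 and 6994 CPM in male mock libraries. In females, Neb had 7687, 8712, 8993 and 9887 CPM in female C-del libraries, against 7516, 6989 and 2886 CPM in female mock libraries. Male groups overlapped, and in females all C-del libraries lay above the mock libraries, of which library 3 was far below the others. Ttn, which encodes titin, the elastic filament from Z-disc to M-band, had 5579, 6291, 9661 and 6573 CPM in male C-del libraries, against 9483, 10173, 7359 and 7001 CPM in male mock libraries. In females, Ttn had 8261, 9836, 9553 and 10998 CPM in female C-del libraries, against 9447, 7582 and 3779 CPM in female mock libraries. Female mock library 3 was the lowest of the 7 for both genes, and male C-del libraries 1 and 2 were the lowest of the 8 for Neb, as C-del libraries 1, 2 and 4 were for Ttn. The log2 fold change in females was 0.61 ± 0.29 for Neb and 0.48 ± 0.27 for Ttn (SE), and 0.28 and 0.18 without mock library 3; in males it was -0.09 ± 0.11 for Neb and -0.28 ± 0.21 for Ttn (SE).

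Length went with level in female mock library 3 across the members. Relative to the mean of mock libraries 1 and 2, all 3 members with more than 8000 exon bases (Neb, Ttn and Xirp2) were lower, with a median log2 ratio of -1.17, while 17 of 18 members with fewer than 1500 exon bases were higher, with a median of 0.63. Spearman's rho between exon length and this log2 ratio was -0.73 over the 39 members, which share the same libraries. Genes outside the members with a mean of at least 10 CPM were compared too. There were 635 long genes (above 8000 exon bases) and 995 short genes (below 1500) in females, and 637 and 926 in males. The median log2 level of these long genes less that of the short genes, each relative to its own mean over the libraries of that sex, was -0.99 in female mock library 3. It was 0.13 to 0.21 in the other female libraries and -0.09 to 0.06 in males. What part this has in the female values was not tested beyond leaving that library out.

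**Figure D3:**
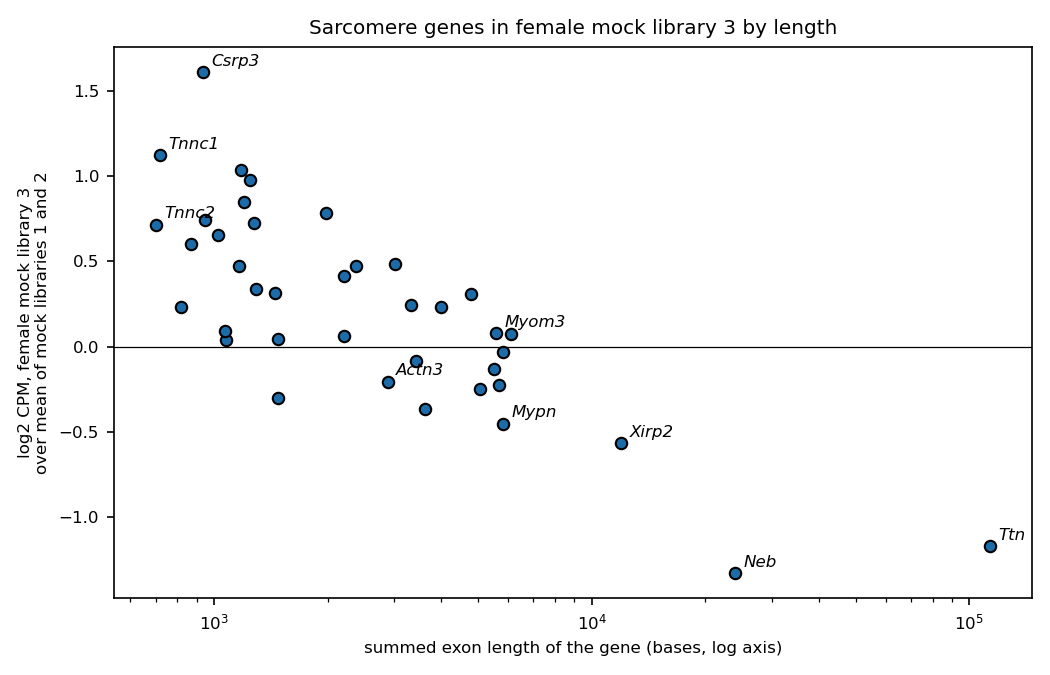
Each point is 1 of the 39 sarcomere genes, with its summed exon length (horizontal, log axis) and the log2 ratio of its CPM in female mock library 3 to the mean of female mock libraries 1 and 2 (vertical). Short genes lie mostly above 0 and the 3 longest, Xirp2, Neb and Ttn, between -0.57 and -1.33.

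Leiomodins promote actin assembly at the pointed end of the thin filament. Lmod3 had 196, 182, 159.6 and 175 CPM in male C-del libraries, against 139, 131, 156 and 161 CPM in male mock libraries. C-del library 3 lay below mock library 4, and the other C-del libraries lay above all mock libraries. The log2 fold change of Lmod3 was 0.28 ± 0.07 (SE; edgeR, adjusted p = 0.0289), and the adjusted p was 0.0558 to 0.0804 when C-del library 1, 2 or 4 or mock library 1 or 2 was left out. In females Lmod3 had 144, 156, 179 and 160.4 CPM in female C-del libraries, against 135, 122 and 172 CPM in female mock libraries, which overlapped, with a log2 fold change of 0.16 ± 0.14 (SE; edgeR, adjusted p = 0.671), and the average passed without mock library 3 (edgeR, adjusted p = 0.0143). Lmod2 did not pass in males, where C-del libraries ranged from 229 to 275 CPM and mock libraries from 142 to 218 CPM without overlap. In females it ranged from 202 to 279.9 CPM with C-del and from 104 to 213 CPM with mock. The average of both sexes was 0.50 ± 0.14 (SE; edgeR, adjusted p = 0.054). It passed in males without mock library 2 (edgeR, adjusted p = 0.0455), and in the average without female C-del library 1 or female mock library 3 (edgeR, adjusted p = 0.0461 or 0.00735).

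Myosin light chains bind the neck of the myosin head. Myl1, the essential light chain of fast fibres, had 7173, 7256, 8011 and 8198 CPM in male C-del libraries, against 8114, 7532, 7288 and 7224 CPM in male mock libraries. In females, Myl1 had 6028, 5857, 5987 and 6155 CPM in female C-del libraries, against 6429.7, 5584 and 6197 CPM in female mock libraries. The groups overlapped, with log2 fold changes of 0.02 ± 0.06 in males and -0.02 ± 0.10 in females (SE). Myl3, the essential light chain of slow fibres and ventricle, had 29.2, 37.2, 32.7 and 43.6 CPM in male C-del libraries, against 28.96, 25.2, 49.9 and 41.9 CPM in male mock libraries, which overlapped. In females, Myl3 had 176, 171, 246 and 146 CPM in female C-del libraries, against 75.4, 102 and 94.5 CPM in female mock libraries. All 4 female C-del libraries lay above all 3 mock libraries, with C-del library 3 highest. The log2 fold change of Myl3 was 1.02 ± 0.19 (SE; edgeR, adjusted p = 0.12) in females and -0.03 ± 0.25 (SE; edgeR, adjusted p = 0.958) in males, and the female less male difference was 1.05 ± 0.31 (SE; edgeR, adjusted p = 0.103). DESeq2 gave an adjusted p of 6.24e-05 in females and 0.0197 for the difference. Without female mock library 1, edgeR gave an adjusted p of 0.0269 for Myl3 in females, and without male mock library 3 its average passed (edgeR, adjusted p = 0.0426).

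Other slow genes were ordered differently from Myl3 across the female libraries. Myh7, the slow myosin heavy chain, had 2.59, 18.7, 31.1 and 1.21 CPM in female C-del libraries, against 22.6, 9.74 and 16.9 CPM in female mock libraries. Female C-del libraries 1 and 4 were the lowest for Myh7, Tnnt1 and Tnni1, yet held 176 and 146 CPM of Myl3, above every mock library. Myl2, the regulatory light chain of slow fibres and ventricle, had 9.09, 3.17, 4.96 and 7.68 CPM in male C-del libraries, against 1.87, 5.77, 12.3 and 4.93 CPM in male mock libraries. In females, Myl2 had 49.1, 66.5, 89.5 and 38.4 CPM in female C-del libraries, against 35.1, 26.3 and 60.5 CPM in female mock libraries. The groups of Myl2 overlapped in both sexes, with log2 fold changes of 0.00 ± 0.59 in males and 0.59 ± 0.34 in females (SE). Mylpf, the regulatory light chain of fast fibres, had 3322, 3435, 3978 and 4185 CPM in male C-del libraries, against 3943, 4081, 3523 and 3904 CPM in male mock libraries. In females, Mylpf had 4221, 4239.9, 4344 and 4268 CPM in female C-del libraries, against 4705, 4108 and 5166 CPM in female mock libraries, and its log2 fold changes were -0.05 ± 0.07 in males and -0.13 ± 0.11 in females (SE).

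Myl4, the light chain of atrium and of embryonic muscle, fell in males and in the average of both sexes. It had 4.96, 6.24, 4.02 and 5.23 CPM in male C-del libraries, against 7.11, 6.71, 7.30 and 6.53 CPM in male mock libraries. All C-del libraries lay below all mock libraries, with a log2 fold change of -0.43 ± 0.13 (SE; edgeR, adjusted p = 0.0449). In females, Myl4 had 10.6, 8.64, 10.5 and 10.9 CPM in female C-del libraries, against 9.88, 14.04 and 21.6 CPM in female mock libraries, with mock libraries 2 and 3 highest. The female log2 fold change was -0.58 ± 0.24 (SE; edgeR, adjusted p = 0.369), and -0.80 without mock library 1 (edgeR, adjusted p = 0.0399). The average was -0.50 ± 0.14 (SE; edgeR, adjusted p = 0.0488) and -0.33 without female mock library 3. The male call was lost without any single library other than C-del 2 (adjusted p from 0.0687 to 0.111), and the average call without any single library other than male C-del 2 and female mock 1 and 2 (adjusted p from 0.0589 to 0.103). Myl6b, a minor alkali light chain, ranged from 5.22 to 7.21 CPM in male C-del and 5.97 to 7.50 CPM in male mock libraries, and from 5.34 to 6.51 CPM in female C-del and 6.14 to 9.68 CPM in female mock libraries, and did not pass in any comparison.

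Myosin binding protein C holds myosin heads near the thick filament. Mybpc1, its slow-type paralog (chromosome 10, 88518279 to 88605229), had the smallest adjusted p of the members in males. It had 2738, 2782, 2735 and 2938 CPM in male C-del libraries, against 2272, 2194, 2288 and 2262 CPM in male mock libraries. The 4 C-del libraries lay within 2735 to 2938 CPM, above all mock libraries, with a log2 fold change of 0.31 ± 0.04 (SE; edgeR, adjusted p = 0.000418). In females, Mybpc1 had 3464, 3579, 3784 and 3901 CPM in female C-del libraries, against 3016, 2642 and 3318 CPM in female mock libraries. Again no library overlapped, with a log2 fold change of 0.30 ± 0.11 (SE; edgeR, adjusted p = 0.323), and the average was 0.31 ± 0.06 (SE; edgeR, adjusted p = 0.00562). The average passed in each of 21 alternatives, with values from 0.27 to 0.35. Of 3981 exon bases of Mybpc1, 252 lie opposite the exons of Gm48752, an unproven gene model.

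The fast-type paralog Mybpc2 had 3628, 3548, 4214 and 4475 CPM in male C-del libraries, against 4332, 4262, 3767 and 4109.9 CPM in male mock libraries. In females, Mybpc2 had 3264, 2998, 3041 and 3255 CPM in female C-del libraries, against 4348, 3518 and 3053 CPM in female mock libraries. The groups overlapped in both sexes, with C-del libraries 1 and 2 lowest in males and mock library 1 highest in females. Its log2 fold changes were -0.05 ± 0.07 in males and -0.21 ± 0.13 in females (SE), and it did not pass in males, females or the average.

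At the Z-disc, Actn2, Myoz2, Ldb3 and Myot rose in the average of both sexes, and Ldb3 and Myot also in males alone. Actn2, the alpha-actinin of all fibres and of heart (chromosome 13, 12269426 to 12340732), had 1708, 1709, 1224 and 1273 CPM in male C-del libraries, against 1204, 1150.1, 1152 and 1136 CPM in male mock libraries. Male C-del libraries 1 and 2 were high and libraries 3 and 4 lay just above the mock range. In females, Actn2 had 1125, 1680.2, 1667 and 1836 CPM in female C-del libraries, against 829, 825 and 1155 CPM in female mock libraries. Female C-del library 1 was lower than mock library 3, and the other C-del libraries exceeded all mock libraries. The log2 fold change was 0.35 ± 0.11 (SE; edgeR, adjusted p = 0.09) in males, 0.75 ± 0.19 (SE; edgeR, adjusted p = 0.176) in females and 0.55 ± 0.11 (SE; edgeR, adjusted p = 0.0131) in the average. In males it passed without C-del library 3 or 4 (adjusted p = 0.0179 or 0.0455, edgeR). Without C-del libraries 1 and 2, which also held the most macrophage marker RNA, the male value was 0.11 and the average 0.43 (edgeR, adjusted p = 0.0816 for the average).

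Actn3, the alpha-actinin of fast fibres, had 5581, 5743, 7819.6 and 7721 CPM in male C-del libraries, against 7216, 7455, 6867 and 7298 CPM in male mock libraries. Male C-del libraries 1 and 2 were the lowest of the 8 and libraries 3 and 4 the highest, whereas libraries 1 and 2 were the highest for Actn2. In females, Actn3 had 6157, 5472, 6111 and 6067 CPM in female C-del libraries, against 8384, 6386 and 6404 CPM in female mock libraries. All female C-del libraries lay below all mock libraries, with a log2 fold change of -0.25 ± 0.12 (SE; edgeR, adjusted p = 0.477), against -0.10 ± 0.11 (SE; edgeR, adjusted p = 0.63) in males.

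Myoz2, the calsarcin of slow fibres and heart, which binds calcineurin at the Z-disc (chromosome 3, 123006206 to 123035003), had 105, 98.9, 69.3 and 67.6 CPM in male C-del libraries, against 49.2, 41.5, 58.9 and 56.5 CPM in male mock libraries. No C-del library overlapped with a mock library, C-del 1 and 2 being farthest. In females, Myoz2 had 127, 206, 195 and 191 CPM in female C-del libraries, against 54.99, 71.95 and 130.2 CPM in female mock libraries. Mock library 3 overlapped with C-del library 1, and the other C-del libraries were above 190 CPM. For Myoz2, the log2 fold change was 0.73 ± 0.19 (SE; edgeR, adjusted p = 0.0595) in males, 1.07 ± 0.29 (SE; edgeR, adjusted p = 0.197) in females and 0.90 ± 0.19 (SE; edgeR, adjusted p = 0.0169) in the average. Without male C-del library 4 it passed in males (edgeR, adjusted p = 0.0422). Without both male C-del libraries 1 and 2, the male value was 0.41 and the average 0.74 (edgeR, adjusted p = 0.0816).

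With all libraries kept, the other calsarcins did not rise. Myoz1, that of fast fibres, had 1575, 1608, 1935 and 2031 CPM in male C-del libraries, against 1771, 1774, 1722 and 1777 CPM in male mock libraries. In females, Myoz1 had 1259, 1307, 1330.3 and 1435 CPM in female C-del libraries, against 1500.02, 1356 and 1806 CPM in female mock libraries, and the groups overlapped in both sexes. Myoz3, also of fast fibres, had 276, 274, 339 and 353 CPM in male C-del libraries, against 379.9, 378, 369 and 389 CPM in male mock libraries. All C-del libraries were below all mock libraries, libraries 1 and 2 farthest, with a log2 fold change of -0.29 ± 0.08 (SE; edgeR, adjusted p = 0.0355). The call of Myoz3 was lost without any single library of C-del 1, C-del 2 or mock 1 to 4 (adjusted p from 0.064 to 0.093), and without both C-del 1 and 2 the value was -0.13. In females Myoz3 had 329, 303, 297 and 339.6 CPM in female C-del libraries, against 347, 301 and 305 CPM in female mock libraries, which overlapped, with a log2 fold change of -0.00 ± 0.10 (SE; edgeR, adjusted p = 0.993). For Myoz1 the log2 fold changes were 0.02 ± 0.07 in males and -0.22 ± 0.12 in females (SE). Without male C-del libraries 1 and 2, Myoz1 passed as higher in males (edgeR).

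Ldb3, the PDZ and LIM protein also called ZASP or Cypher (chromosome 14, 34526699 to 34590314), had 2674, 2666, 2393 and 2459.96 CPM in male C-del libraries, against 2215, 2218, 2061 and 2151 CPM in male mock libraries. In females, Ldb3 had 2272, 2913, 2677 and 3066 CPM in female C-del libraries, against 2032, 2113 and 2184 CPM in female mock libraries. No C-del library overlapped with a mock library in either sex, and female C-del library 1 was the C-del library nearest to the mock range. For Ldb3, the log2 fold change was 0.24 ± 0.05 (SE; edgeR, adjusted p = 0.0074) in males, 0.37 ± 0.12 (SE; edgeR, adjusted p = 0.262) in females and 0.31 ± 0.06 (SE; edgeR, adjusted p = 0.0114) in the average. With mock libraries 3 and 4 left out the male adjusted p was 0.127, and it was 0.17 when all 15 libraries were fitted together (edgeR). Without male C-del libraries 1 and 2 the average was 0.27 (edgeR, adjusted p = 0.0769).

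Myot encodes myotilin, which crosslinks actin at the Z-disc (chromosome 18, 44334053 to 44355740), and had 1659, 1638, 1605 and 1584 CPM in male C-del libraries, against 1404, 1266, 1399.9 and 1438 CPM in male mock libraries. The 4 C-del libraries lay above the mock libraries, with a log2 fold change of 0.24 ± 0.05 (SE; edgeR, adjusted p = 0.00566), and an adjusted p of 0.122 in the fit of all 15 libraries (edgeR). In females, Myot had 1313, 1457, 1556 and 1615 CPM in female C-del libraries, against 1322, 1195 and 1311 CPM in female mock libraries. Female C-del library 1 lay within the mock range and the others lay above it, with a log2 fold change of 0.22 ± 0.11 (SE; edgeR, adjusted p = 0.47). The average was 0.23 ± 0.06 (SE; edgeR, adjusted p = 0.0297), and its adjusted p was 0.0508 to 0.0671 without any single library of male C-del 1, 2 or 3, male mock 1, 2 or 3, or female C-del 2, 3 or 4.

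Myopalladin and telethonin did not pass in any of the 4 comparisons. Mypn, which ties nebulin to alpha-actinin, ranged from 436 to 470.3 CPM in male C-del and from 393 to 433 CPM in male mock libraries, without overlap, at a log2 fold change of 0.14 ± 0.05 (SE; edgeR, adjusted p = 0.0756). In females Mypn ranged from 324 to 369 CPM with C-del and from 265 to 398 CPM with mock. Without female mock library 1 its average was 0.19 (edgeR, adjusted p = 0.0347). In males Mypn passed as higher without C-del libraries 1 and 2 (edgeR). Tcap, the telethonin that caps titin at the Z-disc, ranged from 2487 to 2565 CPM with C-del and from 2250.2 to 2525 CPM with mock in males, and from 2920.4 to 3237 CPM with C-del and from 2154 to 4480.4 CPM with mock in females.

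Csrp3, the muscle LIM protein known for its part in sensing mechanical stress and enriched in slow fibres, had the largest log2 fold change of the list in males, in females and in the average. It had 139.5, 266, 56.1 and 69.9 CPM in male C-del libraries, against 45.2, 37.8, 44.96 and 52.2 CPM in male mock libraries. All male C-del libraries lay above the mock libraries, libraries 3 and 4 by a little and library 2 by far the most. In females, Csrp3 had 70.4, 329, 225 and 433 CPM in female C-del libraries, against 20.2, 51.9 and 110.1 CPM in female mock libraries. Female C-del library 1 lay below mock library 3, and C-del libraries 2 and 4 were the highest. For Csrp3, the log2 fold change was 1.56 ± 0.54 (SE; edgeR, adjusted p = 0.131) in males, 2.12 ± 0.68 (SE; edgeR, adjusted p = 0.263) in females and 1.84 ± 0.48 (SE; edgeR, adjusted p = 0.0548) in the average, so that it passed in none of them with edgeR, and in males and in the average with DESeq2 (adjusted p = 0.0319 and 0.00238). In males it was 0.49 without C-del libraries 1 and 2, and the average passed without female C-del library 1 or female mock library 3 (edgeR, adjusted p = 0.0256 or 0.0364).

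**Figure D4:**
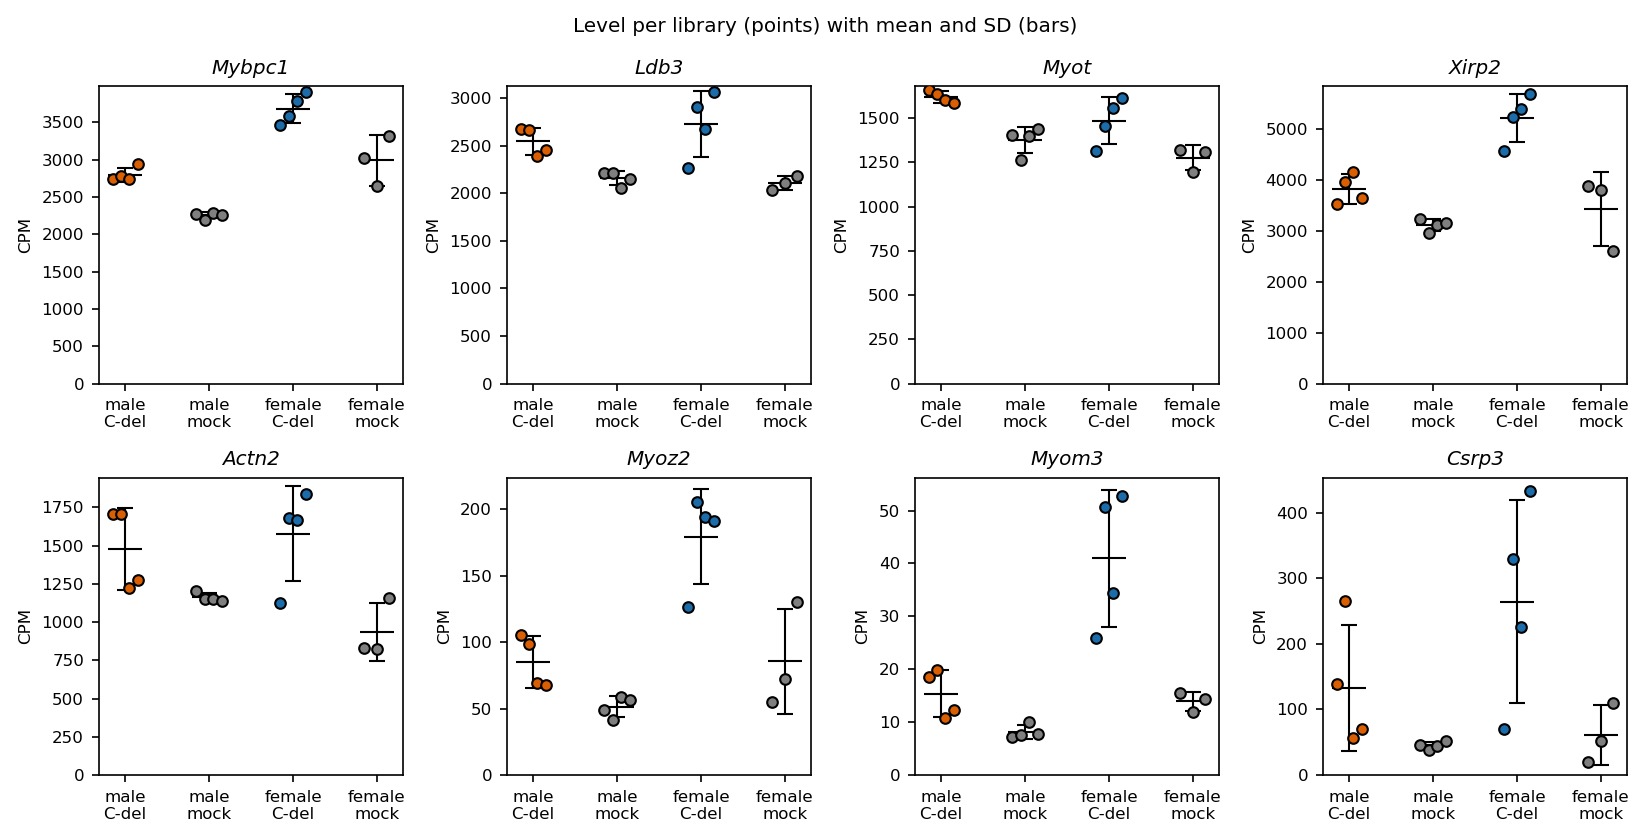
CPM per library (points) with group mean and SD (bars) for Mybpc1, Ldb3, Myot, Xirp2, Actn2, Myoz2, Myom3 and Csrp3, in male C-del, male mock, female C-del and female mock libraries; each vertical axis starts at 0. In males the C-del points of Actn2, Myoz2, Myom3 and Csrp3 fall into a higher and a lower pair, whereas those of Mybpc1 and Myot lie close together.

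At the M-band, Myom3 rose in males and in the average, while Myom1 and Myom2 did not pass. Without male C-del libraries 1 and 2, Myom2 passed as higher in males (edgeR). Myom3, the myomesin of slow and intermediate fibres (chromosome 4, 135758800 to 135815571), had 18.6, 19.8, 10.9 and 12.3 CPM in male C-del libraries, against 7.18, 7.65, 9.96 and 7.71 CPM in male mock libraries. C-del libraries 1 and 2 were the highest, and library 3 exceeded the highest mock library by under 1 CPM. In females, Myom3 had 25.9, 50.7, 34.3 and 52.8 CPM in female C-del libraries, against 15.5, 11.8 and 14.4 CPM in female mock libraries. There, the lowest C-del library lay well above the highest mock library. For Myom3, the log2 fold change was 0.92 ± 0.21 (SE; edgeR, adjusted p = 0.0266) in males, 1.56 ± 0.25 (SE; edgeR, adjusted p = 0.108) in females and 1.24 ± 0.18 (SE; edgeR, adjusted p = 0.00128) in the average. The male call was lost without C-del library 1 or mock library 1, 2 or 4 (adjusted p from 0.0553 to 0.0837) and kept without both C-del libraries 1 and 2, at 0.51 (edgeR, adjusted p = 0.0333). In females edgeR passed it without mock library 1 (adjusted p = 0.0105). The average of Myom3 lost its call only without female mock libraries 2 and 3, a run that leaves 1 female mock library. Myom1, the myomesin of all fibres, ranged from 1753 to 1862 CPM in male C-del and 1774 to 1843 CPM in male mock libraries, and from 1602 to 1964 CPM in female C-del and 1518 to 1801 CPM in female mock libraries. Myom2, the M-protein of fast fibres and heart, ranged from 1566 to 1789 CPM in male C-del and 1480.1 to 1617 CPM in male mock libraries, and from 1185 to 1672 CPM in female C-del and 1181 to 1541 CPM in female mock libraries.

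The Xin proteins bind actin and gather at myotendinous junctions and at sites of myofibril repair. In these libraries 10 tendon markers summed to 228 to 371 CPM in male C-del, against 417 to 744 CPM in male mock (library 3 highest), and to 238 to 590 CPM in female C-del, against 191 to 352 CPM in female mock. In males all 10 had log2 fold changes under 0, with a median of -0.93, and 2 of them fell (Tnmd and Egr1, named after their values were seen; edgeR), where 5.37% of all genes fell. In females 0 passed (edgeR; 2 were higher at an unadjusted p under 0.05). Egr1, part of these sums, had 10.8 to 27.8 CPM in male C-del against 61.4 to 81.5 CPM in male mock. In females it had 30.9 to 123 CPM with C-del against 17.8 to 27.6 CPM with mock. Which cells its RNA came from was not tested. The part of tendon in the values of Xirp1, Xirp2 and Nrap was not tested. Xirp2 (chromosome 2, 67446000 to 67526620) had 3518, 3953, 4154 and 3647 CPM in male C-del libraries, against 3231, 2953, 3099.8 and 3151 CPM in male mock libraries. In females, Xirp2 had 4563, 5235, 5375 and 5672 CPM in female C-del libraries, against 3881, 3803 and 2596 CPM in female mock libraries. No C-del library overlapped with a mock library in either sex, and female mock library 3 was lowest. For Xirp2, the log2 fold change was 0.30 ± 0.06 (SE; edgeR, adjusted p = 0.00381) in males, 0.60 ± 0.16 (SE; edgeR, adjusted p = 0.181) in females and 0.45 ± 0.08 (SE; edgeR, adjusted p = 0.00389) in the average. The average passed in each of 21 alternatives and was 0.37 without female mock library 3 and 0.47 without male C-del libraries 1 and 2. In males alone its adjusted p was 0.178 in the fit of all 15 libraries (edgeR). In females Xirp2 passed without mock library 1 (edgeR, adjusted p = 0.0431).

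Xirp1 had 717, 782, 734 and 659.95 CPM in male C-del libraries, against 807, 449, 482 and 529 CPM in male mock libraries. Mock library 1 was the highest of the 8, and without it the male log2 fold change was 0.57 (edgeR, adjusted p = 0.000257), against 0.35 ± 0.20 (SE; edgeR, adjusted p = 0.321) with it. In females, Xirp1 had 128, 239, 192 and 469 CPM in female C-del libraries, against 104, 165 and 131 CPM in female mock libraries, with C-del library 4 far above the others and a log2 fold change of 0.94 ± 0.40 (SE; edgeR, adjusted p = 0.397). Its average passed without female C-del library 1 (edgeR, adjusted p = 0.0484). Nrap, an actin-binding protein of myofibril assembly and myotendinous junctions, had 2096, 2282, 2090.4 and 2056 CPM in male C-del libraries, against 2106, 2062, 2187 and 2111 CPM in male mock libraries. In females, Nrap had 1983, 2531, 2679 and 2982 CPM in female C-del libraries, against 1942, 1911 and 1758 CPM in female mock libraries. Male libraries overlapped and female C-del libraries lay above all mock libraries, with log2 fold changes of 0.01 ± 0.05 (SE; edgeR, adjusted p = 0.922) and 0.44 ± 0.14 (SE; edgeR, adjusted p = 0.25). The female less male difference was 0.43 ± 0.14 (SE; edgeR, adjusted p = 0.132), and 0.54 without female C-del library 1 (edgeR, adjusted p = 0.046). Without that library, or without female mock library 1, the average of Nrap passed too (edgeR, adjusted p = 0.00641 or 0.0427).

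Levels per length were highest for Acta1 in all 4 groups, and lowest for Tnni1 in both C-del groups and for Myom3 in both mock groups. In CPM per kilobase of exon, male mock libraries held 19918 ± 955 of Acta1, 16219 ± 320.4 of Tnnt3, 11171 ± 509.9 of Tnnc2 and 8675 ± 224 of Tnni2 (SD, n = 4). The slow troponins Tnnt1, Tnnc1 and Tnni1 were at 4.94 ± 1.36, 4.83 ± 1.55 and 2.07 ± 0.69 CPM per kilobase, and Myom3 at 1.46 ± 0.22 (SD, n = 4). Female mock libraries had the same 4 genes on top, with Acta1 at 18496 ± 3103 and Tnnt3 at 16955 ± 3609.7 CPM per kilobase (SD, n = 3), which overlap within their SD. Together the 39 members made up 14.9% ± 0.50 of counts in male C-del and 14.9% ± 0.29 in male mock (SD, n = 4 each), and 15.1% ± 0.31 in female C-del (SD, n = 4) and 14.99% ± 1.11 in female mock libraries (SD, n = 3).

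The 10 paralog pairs were compared as log2 ratios of the fast or adult skeletal member over the slow or cardiac member within each library, with 0.5 added to each CPM. Not every ratio sets fast against slow fibres, as Actn2 is a gene of all fibres and Acta1 one of adult fibres. In male mock libraries Mybpc1 and Actn2 averaged 2254 and 1161 CPM, against 5.33 CPM for the slow Tnnt1. Each ratio was tested by an exact two-sided permutation test over libraries, adjusted over the 10 pairs of a sex. In males the ratio of Mybpc2 to Mybpc1 averaged 0.50 ± 0.14 with C-del and 0.87 ± 0.11 with mock (SD, n = 4 each), a difference of -0.37 without overlap (exact permutation test, p = 0.0286, the smallest 4 against 4 can give; adjusted p = 0.286). No other pair had groups that did not overlap in males. The ratio of Myoz1 to Myoz2 averaged 4.40 ± 0.52 with C-del and 5.09 ± 0.24 with mock, a difference of -0.69 (exact permutation test, p = 0.0571, n = 4 each).

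In females, with 4 against 3 libraries, the smallest p that can be had is 0.0571, so 0 of 10 pairs could pass. In 3 pairs every C-del library lay below every mock library, each with that smallest p and an adjusted p of 0.19 (exact permutation test). The ratio of Myl1 to Myl3 averaged 5.05 ± 0.33 with C-del and 6.07 ± 0.32 with mock, a difference of -1.02. That of Actn3 to Actn2 averaged 1.94 ± 0.35 with C-del and 2.92 ± 0.43 with mock, a difference of -0.98. That of Myoz1 to Myoz2 averaged 2.91 ± 0.28 with C-del and 4.26 ± 0.48 with mock, a difference of -1.34 (SD, n = 4 with C-del and 3 with mock). The 3 troponin pairs had differences above 0, of 0.49 for Tnnt3 to Tnnt1, 0.43 for Tnni2 to Tnni1 and 0.46 for Tnnc2 to Tnnc1, each with overlapping groups.

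**Figure D5:**
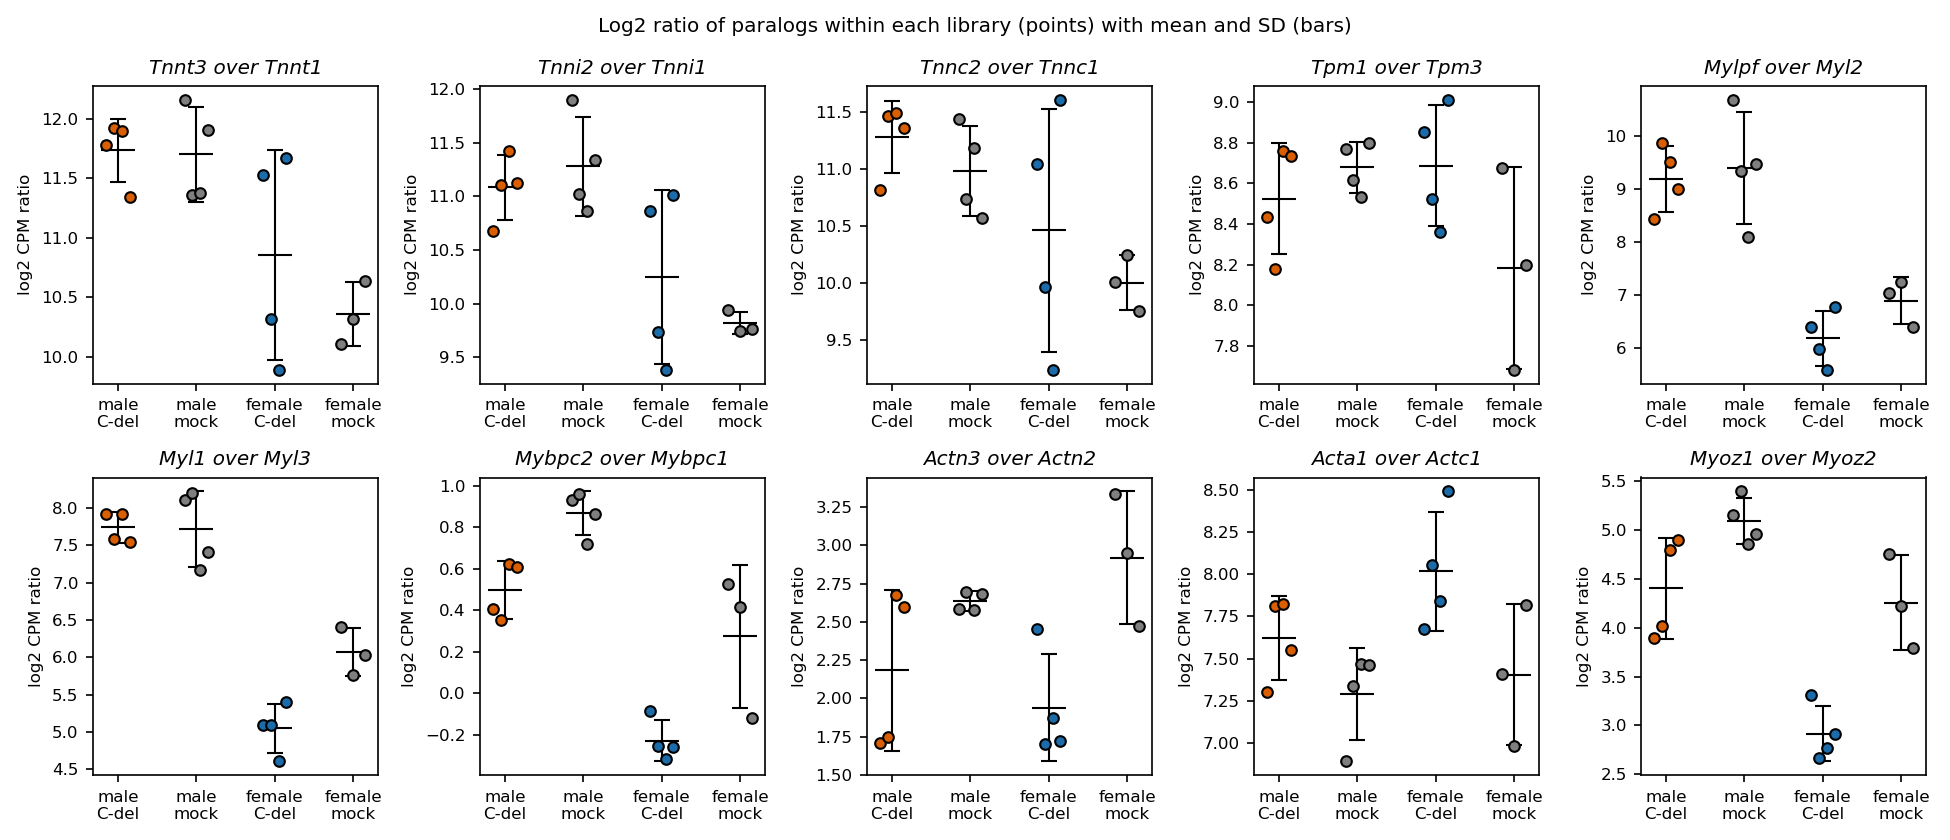
Log2 CPM ratio of the fast or adult skeletal paralog to the slow or cardiac paralog in each library (points), with group mean and SD (bars), for 10 pairs in male C-del, male mock, female C-del and female mock libraries; vertical axes differ and do not start at 0. C-del points lie below all mock points for Mybpc2 over Mybpc1 in males and for Myl1 over Myl3, Actn3 over Actn2 and Myoz1 over Myoz2 in females.

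Among 64 other thin filament, Z-disc and M-band genes, of which 62 were tested, 12 rose and 3 fell in males, where 5.8% of all genes rose and 5.37% fell. In females 0 passed (edgeR; an unadjusted p under 0.05 was reached by 12 higher and 3 lower), and in the average 10 rose, where 2.42% of all genes did. Their median log2 fold changes were 0.06 in males, 0.17 in females and 0.10 in the average, against -0.0047, -0.01 and -0.02 for all genes. Pdlim5, a PDZ and LIM protein of the Z-disc like Ldb3, had 576, 572, 581 and 564 CPM in male C-del libraries, against 455, 409.6, 428 and 435 CPM in male mock libraries, without overlap, and a log2 fold change of 0.41 ± 0.04 (SE; edgeR, adjusted p = 3.68e-05). Bag3, a chaperone partner at the Z-disc, and Fhod1, a formin, followed with 0.49 ± 0.07 and 0.30 ± 0.06 (SE; edgeR, adjusted p = 0.000405 and 0.00701). The 3 that fell were Ankrd23 at -0.23 ± 0.05, Obsl1 at -0.27 ± 0.06 and Sorbs2 at -0.41 ± 0.11 (SE). In the average, Pdlim5, the small heat shock gene Hspb7 and the LIM gene Fhl1 had the smallest p, at 0.39 ± 0.06, 1.31 ± 0.21 and 1.15 ± 0.19 (SE; edgeR, adjusted p = 0.00118, 0.00318 and 0.00369).

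Of 10 myosin heavy chains, Myh1, the 2X chain, rose in males at 0.39 ± 0.08 (SE; edgeR, adjusted p = 0.0114), and Myh2, the 2A chain, rose in the average at 0.78 ± 0.11 (SE; edgeR, adjusted p = 0.000759). Myh2 had 3743, 5489, 5430.2 and 4603 CPM in female C-del libraries, against 1875, 1563 and 2480.02 CPM in female mock libraries, without overlap, and in females its adjusted p was 0.0775 (edgeR). Of 16 cardiac and non-muscle paralogs of the members, 13 were tested in males and 5 fell, with Acta2 and Myl9 of smooth muscle and Actn4, a non-muscle alpha-actinin, at -0.33 ± 0.07, -0.25 ± 0.06 and -0.19 ± 0.05 (SE; edgeR, adjusted p = 0.00816, 0.0233 and 0.0389). In the same males, 6 of 9 smooth muscle and pericyte markers, a list that holds Acta2, fell and 1 rose, and their part in these values was not tested. Over all genes, 5.37% fell and 5.8% rose in males. In the average 0 of the 13 passed with edgeR (2 were lower at an unadjusted p under 0.05).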

How the data were processed

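Gene expression was measured by RNA-seq in 15 libraries, prepared with a stranded kit for mRNA per the labels' protocols. The deposited values are expected counts, that is estimated counts per gene with no normalisation, made by the authors with featureCounts 2.0.0 on GRCm38.p6, per the submitters' processing notes. Of the values, 14.6% to 17.3% per library were not whole (tolerance 0.001). No aligner, counting option or strand setting is given in the sources used here, and exons of 8 members overlap those of a gene on the other strand. Female libraries are numbered as in their titles, whereas male columns could be tied to a group only and are numbered in column order.

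Counts were rounded and tested with edgeR 4.0.16 under R 4.3.3 and limma 3.58.1: filterByExpr with a minimum count of 10, TMM scaling, robust quasi-likelihood test, Benjamini-Hochberg adjustment over all genes tested, threshold 0.05. Each sex was fitted alone; the average and the female less male difference came from a joint fit of all 15 libraries. SE was taken as log2 fold change over the square root of F. Exon lengths are unions from GENCODE M21, and names, positions and promoters are from RefSeq. Methods were tested on simulated data. There edgeR recovered 68.7% of 1.5-fold and 85.1% of 2-fold changes in males, and 16.4% and 56.7% in females. It recovered 61.2% and 86.6% in the average, and 16.4% and 59.7% in the female less male difference. Changes of these sizes in females and in the difference can thus be missed. The simulation drew each gene independently, without the length and immune marker shifts seen in female mock libraries 2 and 3. The shares recovered may therefore be too high for the real female libraries, and larger changes can be missed there too. DESeq2 1.42.0, other scalings, no filter and left-out libraries were the alternatives. Plots used Python 3.11.15, matplotlib 3.10.9, pandas 2.3.3 and numpy 2.4.6.

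By rule, values in every library are given for members that passed and for both members of every paralog pair, and of the other lists up to 3 passing genes per direction and comparison are named by smallest p; Neb, Ttn, Csrp3, Xirp1, Nrap, Myh2 and Myh7 were added after their values were seen. The members and lists were chosen with earlier results of these data known.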

Additional observations from a re-analysis of the deposited data

Results flagged for a closer look

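For 4 of 117 groups of a member's values in 4 libraries, the lowest library lay far from the other 3 by Dixon's test at the 95% level, which chance alone gives in about 1 group in 20. In female C-del library 2, Tpm1 was at 15989 CPM, where the other female C-del libraries had 17526 to 17828 CPM. In the same library Tnnc2 was at 7745 CPM (others 7843 to 7853 CPM) and Actn3 at 5472 CPM (others 6067 to 6157 CPM). In male mock library 3, Myoz1 was at 1722 CPM, where the other male mock libraries had 1771 to 1777 CPM.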

How the results depend on the processing

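No log2 fold change of a passing member changed sign in any alternative run. The count of passing members in males was 11, with 1624 of all genes; it was 13 with DESeq2 (1514 of all genes), 1 in the fit of all 15 libraries (Mybpc1; 380 of all genes), 4 without male mock libraries 3 and 4 (767 of all genes), 0 with neighbouring columns summed (2 values a group; edgeR, 270 of all genes and 11 members at an unadjusted p under 0.05), and 5 to 11 with any single library left out. It was 5 without C-del library 1 (7.73% of all genes), 7 without C-del 2 (8.25%), 11 without C-del 3 (10.4%) and 10 without C-del 4 (9.2%). Without mock 1 it was 5 (7.48% of all genes), and without mock 2, 3 or 4 it was 6 (9.66%, 7.78% and 7.48%). With C-del libraries 1 and 2 both left out it was 11, 10 higher and 1 lower, and 7.57% of all genes passed. Myoz1, Mypn and Myom2 were among those 11. In females 0 passed (2 of all genes), 5 with DESeq2 (377 of all genes), 9 in the fit of all 15 libraries (777 of all genes), and 0 to 5 with any single library left out. The 5 were without mock library 1 (1050 of all genes), a run that leaves only female mock libraries 2 and 3. The average gave 8 (673 of all genes), 14 with DESeq2 (1087 of all genes), and 3 without male C-del libraries 1 and 2 (192 of all genes). With any single library left out it gave 6 to 11, and 2.41% to 13.2% of all genes passed. The female less male difference gave 0, 1 with DESeq2 (Myl3), and 0 to 1 with any single library left out, the 1 being Nrap without female C-del library 1 or Tpm3 without female mock library 1. The cause of these shifts was not tested, apart from the fewer libraries. Mybpc1 and Xirp2 held in 21 of 21 alternatives of the average, and Actn2, Myoz2, Ldb3 and Myom3 in 20 of 21. For Myom3 the run lost was that without female mock libraries 2 and 3, which leaves 1 female mock library. For Actn2, Myoz2 and Ldb3 it was that without male C-del libraries 1 and 2. In males Mybpc1 held in 15 of 16, Myot and Xirp2 in 14, Ldb3 in 13, Acta1 in 11 and the others in 5 to 8.

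Of 418 recomputed counts and member values, 300 were rated the same, 101 weaker and 17 moved, and of 170 paralog ratios 12 moved by over 1 SD. A member value was the same if it kept its sign and passed, and weaker if it no longer passed. A count of passing members was the same if equal or near to the main count by a fixed ratio, and otherwise moved. With the replicate number as a replicate block, 0 members passed in females; deviations of same-numbered female libraries correlated at -0.09, 0.01 and -0.02, so the numbers do not pair them. Leaving out male C-del libraries 1 and 2 together and summing neighbouring columns were chosen after seeing the data. Low counts limit the slow troponins, Myl2, Myl4, Myl6b and Myom3, whose lowest means per group were under 20 CPM.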
